A study of Mus musculus with 12 samples.

Results

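The Notch ligands Jag1, Jag2 and Dll4 were measured in whole hearts of mice at postnatal day 8. The list behind them held 10 genes of the Notch pathway, and a gene was taken where the platform annotation named a probe by its symbol. That was so for 3 of the 10, among 17742 named genes on the array. The receptor genes Notch1, Notch2, Notch3 and Notch4 and the target genes Hey1, Hey2 and Heyl were named by no probe, whether by symbol or by synonym, and were not analysed here. What follows is therefore an account of ligands and of the rest of the pathway, not of receptors.

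The 2 groups were a mutant labelled Salv CKO, a conditional mutant of Salvador (Sav1), and a control labelled wild-type, both on the C57bl/6 X 129 hybrid background. Each group had 2 biological samples, and each sample was hybridised to 3 technical arrays of 1 colour, 12 arrays in all. The source label calls the tissue embryonic, but its stage label and protocol both say postnatal day 8. Neither the Cre driver nor the deleted part of Sav1 nor the number of hearts per sample is given in the sources used here. Salvador is the scaffold of the Hippo kinases, which restrain the transcriptional co-activators Yap1 and Wwtr1, and the comparison asked which genes of the neonatal heart depend on it.

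Notch is a receptor that is cut when a ligand on a neighbouring cell pulls on it, and its released intracellular part enters the nucleus, joins the DNA-binding protein Rbpj and turns on genes of the Hes and Hey families. Jagged and Delta-like proteins are the ligands. In the heart the pathway is known for its part in valve and trabecula formation and in the making of coronary arteries, where Dll4 is a ligand of arterial and sprouting endothelium and Jag1 acts in endothelium and in the smooth muscle around it.

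The sequence just upstream of each ligand gene is shown because the ligands were the members that could be measured and these windows let their regulatory starts be compared. Each run holds the 250 bases before the annotated transcription start (RefSeq, GRCm38.p6), read 5′ to 3′ on the strand of the gene, with every CG dinucleotide in capitals. Jag1 lies on the minus strand at chr2:137116521-137116770, Jag2 on the minus strand at chr12:112929496-112929745 and Dll4 on the plus strand at chr2:119325534-119325783.
Jag1: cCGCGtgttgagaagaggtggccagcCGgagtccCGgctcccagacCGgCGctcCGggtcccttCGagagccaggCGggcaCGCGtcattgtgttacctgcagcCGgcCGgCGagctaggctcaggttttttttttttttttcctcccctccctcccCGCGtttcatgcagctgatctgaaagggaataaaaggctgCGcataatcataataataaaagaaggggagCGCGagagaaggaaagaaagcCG
Jag2: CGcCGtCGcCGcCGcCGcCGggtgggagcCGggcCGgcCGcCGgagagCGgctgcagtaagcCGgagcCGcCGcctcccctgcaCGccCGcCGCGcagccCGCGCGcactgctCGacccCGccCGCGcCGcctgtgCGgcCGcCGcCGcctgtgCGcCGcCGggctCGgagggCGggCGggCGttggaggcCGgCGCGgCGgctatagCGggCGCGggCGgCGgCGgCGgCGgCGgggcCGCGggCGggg
Dll4: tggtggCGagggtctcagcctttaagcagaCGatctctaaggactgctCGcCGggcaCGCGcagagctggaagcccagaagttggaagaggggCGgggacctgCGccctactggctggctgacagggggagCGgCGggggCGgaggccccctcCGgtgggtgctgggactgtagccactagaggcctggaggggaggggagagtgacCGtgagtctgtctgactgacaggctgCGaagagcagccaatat

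The windows held 20 CG dinucleotides for Jag1, 54 for Jag2 and 14 for Dll4, against a median of 6 over 32851 windows of the same length. Of all windows, 82.1% held fewer than Jag1, 100% after rounding fewer than Jag2 and 70.6% fewer than Dll4. Bases G and C made up 57.2%, 87.2% and 65.6% of them in that order, against a median of 52.4%. On either strand, no window held TGGGAA, the core letters bound by Rbpj, which 21.6% of all windows hold. None held GGAATG, the core letters of the Tead factors that carry Yap1, which 12.6% of all windows hold. Such a search says only that these letters are absent from these 250 bases.

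Dll4 had the largest difference of the 3 ligands, and its value rested on a single control. On the log2 scale of normalized intensity plus 1, its levels were 7.48 and 7.69 in Salv CKO 1 and 2, against 8.24 and 7.65 in Control 1 and 2. Control 1 stood alone at the top, and Control 2 fell between the Salv CKO samples, so the groups overlapped. The deposited intensities ran from 147 to 179 and from 226 to 253 over the arrays of Salv CKO 1 and 2, against 293 to 317 in Control 1 and 167 to 210 in Control 2. The group means were 7.59 ± 0.15 in Salv CKO hearts and 7.95 ± 0.42 in Control hearts (SD, n = 2 each). The difference was -0.36 ± 0.29 (SE, 95% interval -1.13 to 0.41, limma, adjusted p = 0.998 over 26423 probes). Without Control 1 it was -0.0645, and without Control 2 it was -0.66 (limma, adjusted p = 0.488).

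Jag1 showed the same order of samples as Dll4, with a smaller difference. Its levels were 9.13 and 9.43 in Salv CKO 1 and 2, against 9.68 and 9.17 in Control 1 and 2. Control 1 was the highest and Salv CKO 2 came next, ahead of Control 2, so the groups overlapped here too. Deposited intensities averaged 481 and 817 in the Salv CKO samples, against 875 and 528 in the controls. The difference was -0.14 ± 0.28 (SE, 95% interval -0.885 to 0.597, limma, adjusted p = 0.998). Leaving out Salv CKO 1 gave 0.0023 and leaving out Control 1 gave 0.11, so single samples set its sign.

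Jag2, the second Jagged ligand, had the smallest difference, and its level was highest in a Salv CKO sample. Its levels were 7.66 and 7.99 in Salv CKO 1 and 2, against 7.81 and 7.66 in Control 1 and 2. Salv CKO 2 stood above both controls, while Salv CKO 1 stood level with Control 2. Deposited intensities averaged 187 and 296 in the Salv CKO samples, against 220 and 188 in the controls. The difference was 0.094 ± 0.24 (SE, 95% interval -0.53 to 0.717, limma, adjusted p = 0.998), and without Salv CKO 2 it was -0.0716.

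**Figure D1:**
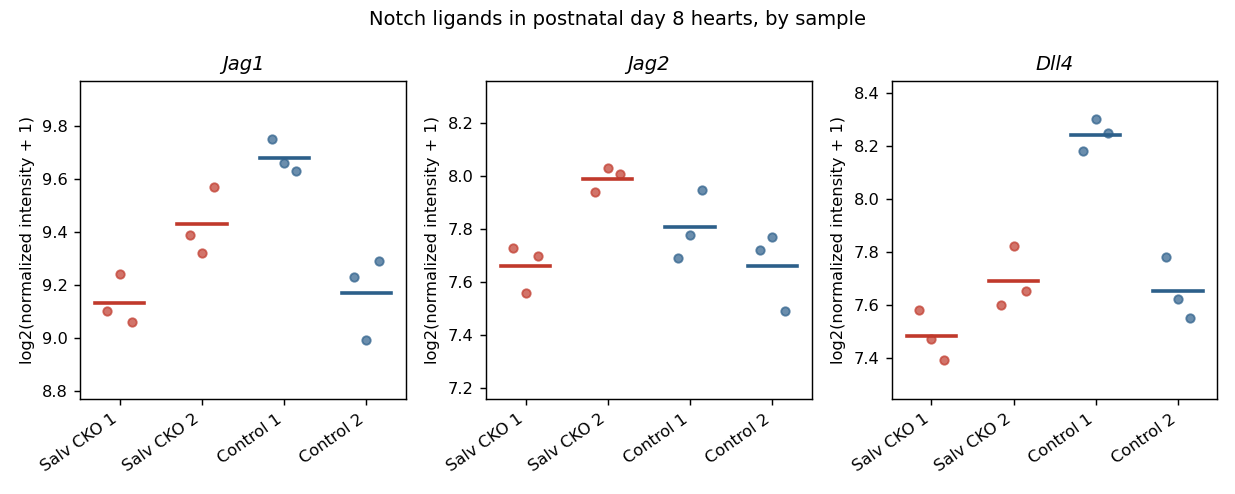
Levels of Jag1, Jag2 and Dll4 as log2(normalized intensity + 1), vertical axes spanning the same width in each panel and not starting at 0. Points are the 3 technical arrays of a sample and bars their mean, Salv CKO samples in red and Control samples in blue. Control 1 is highest for Jag1 (9.68) and Dll4 (8.24), and Salv CKO 2 for Jag2 (7.99).

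The arrays of a sample lay closer together than the samples of a group. The SD between technical arrays was 0.115 for Jag1, 0.112 for Jag2 and 0.0995 for Dll4, against 0.293, 0.181 and 0.314 between the samples of a group. Over all probes the median SDs were 0.191 between technical arrays and 0.27 between samples. The intervals leave room for a change of either sign in each ligand, and a p that misses the threshold does not show that a ligand was equal in both groups.

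None of the 3 ligands passed an adjusted p of 0.05, and that rule called 0% of all probes. At an unadjusted p under 0.05 there were likewise 0 of the 3, where 3.97% of probes passed. No ligand separated the groups without overlap, against 30.6% of all probes. Of the 3 ligands, 1 had a positive difference, against 48.6% of all probes, and their median difference was -0.14, against -0.010 over all probes. Nothing in the labels says whether biological replicates were separate animals or pools, so the limma p-values measure only the spread between these 4 samples, part of which may be technical.

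Sav1, the targeted gene, did not separate the groups either, and any direction above is that of the labels only. The Sav1 probe read 8.06 in the library labelled Salv CKO 1 and 8.52 in the library labelled Salv CKO 2, against 8.75 and 8.08 in Control 1 and 2. The highest level was in Control 1 and the next in Salv CKO 2, the order also seen in Jag1 and Dll4. Neither the deleted part nor the position of the probe is given, so whether this probe can report the deletion is not known. The root mean square difference between the centred levels over the 4 samples was 0.085 for Jag1 and Sav1 and 0.15 for Dll4 and Sav1, a pair of values looked up after the levels had been seen. Among 10575 named genes with probes brighter than the median, 589 were closer to Jag1 than Sav1 was, and 1390 were closer to Dll4, so this likeness was shared by many genes.

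Within the ligands, Jag1 and Dll4 differed from each other by 0.12 on that measure, Jag1 and Jag2 by 0.17, and Jag2 and Dll4 by 0.28. The genes whose centred levels lay nearest to Dll4 were Ppp2r5d, a regulatory subunit of protein phosphatase 2A, at 0.016, and Mettl1, a tRNA methyltransferase, and Prrc1, both at 0.019. Those nearest to Jag1 were the nuclear receptor coactivator gene Ncoa6 at 0.012, the forkhead factor gene Foxp1 at 0.013 and the sialyltransferase gene St6galnac6 at 0.016. Foxp1 had levels of 8.95 and 9.26 in Salv CKO 1 and 2, against 9.48 and 9.0 in Control 1 and 2. Over 4 samples many genes can lie close to any profile, and these names describe the samples only. Over all probes, 17.3% had Control 1 highest and Salv CKO 2 next, as Jag1 and Dll4 did.

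The brightness of the arrays followed that order only in part across the 4 samples, and it differed between samples of a group. The 75th percentile of deposited intensity ran from 348 to 401 over the arrays of Salv CKO 1 and from 457 to 542 in Salv CKO 2, against 408 to 474 in Control 1 and 360 to 411 in Control 2. The median intensity ran from 64 to 78 in Salv CKO 1 and from 68 to 88 in Salv CKO 2, against 60 to 73 in Control 1 and 58 to 70 in Control 2. Salv CKO 2 thus ranged highest by both measures. Salv CKO 1, the lowest sample for Jag1 and Dll4, ranged lowest by the 75th percentile, though its medians ranged higher than those of Control 1, both with overlap. The order by the 75th percentile was that of Jag1 and Dll4 with Control 1 and Salv CKO 2 exchanged. By the 75th percentile the arrays of Salv CKO 2 were the brighter within their group and those of Control 1 mostly so within theirs, and Jag1, Jag2 and Dll4 were each higher in these samples than in the other sample of their group. The levels compared here were taken after quantile normalization, which gives all arrays the same distribution of intensities, and the brightness before it. The part of array brightness in the levels was not tested.

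Vascular markers were set beside the ligands because endothelium and the cells around vessels are known sources of them, and in whole hearts fewer cells of a type and less RNA per cell cannot be told apart. Of the 15 endothelial markers, all measured, 12 differed by less than 0, the median being -0.12, and 4 were lower without overlap between the groups. Those 4 made up 26.7% of the list, against 15.8% of all probes lower without overlap and 30.6% without overlap in either direction, and none of the 15 passed an unadjusted p of 0.05. Their summed normalized intensity was 55970 and 56590 in Salv CKO 1 and 2, against 62240 and 58310 in Control 1 and 2. No endothelial marker was listed at 0 or below. Kdr, the main receptor for vascular endothelial growth factor, had levels of 9.80 and 10.12 in the Salv CKO samples, against 10.49 and 9.70 in the controls. Cdh5, the cadherin of endothelial junctions, had 12 and 12.42, against 12.70 and 11.94. Both, named for their wide range, had Control 1 first and Salv CKO 2 next, as Jag1 did, but Salv CKO 1 above Control 2. Tie1 and Eng had the full sample order of Jag1, and 8 of the 15 markers were highest in Control 1, against 35.8% of all probes. Some of the others ran otherwise. Pecam1, an adhesion molecule of endothelium, had 10.82 and 10.99 in the Salv CKO samples, against 10.34 and 10.90 in the controls, so that Control 1 was its lowest sample, and Tek and Emcn were highest in Control 2. Erg, the remaining marker with a wide range, was dim, with intensities of at most 13.

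Markers of arterial endothelium, where Dll4 is known to act, had 4 of 8 positive differences and a median of 0.042. Their summed intensity was 8546 and 8859 in Salv CKO 1 and 2, against 10290 and 8501 in Control 1 and 2, and none was listed at 0 or below. Gja5, the connexin of arterial endothelium and atrial muscle, had levels of 9.64 and 9.95, against 10.72 and 9.78, and Bmx, a kinase of arterial endothelium, 6.75 and 7.5, against 7.81 and 7.21. Efnb2 had 10.55 and 10.72, against 10.99 and 10.58. Sema3g, dim here, went the other way, with 6.24 and 6.04 in the Salv CKO samples, against 5.60 and 6.16 in the controls. Gja5, Bmx and Efnb2 thus had the full sample order of Dll4, Efnb2 being named outside the rule of widest range. The bright markers Gja4 and Sox17 were instead highest in Salv CKO 1, with differences of 0.22 and 0.16. Of the 8 markers, 4 were highest in Control 1, against 35.8% of all probes. Control 1 first and Salv CKO 2 next was the order in 17.3% of all probes, and the share with the full order was not counted. The differences of the list as a whole showed no common direction.

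Of 12 mural markers, which mark smooth muscle and pericytes, 11 were measured and 7 of them differed by less than 0, the median being -0.064. Their summed intensity was 18590 and 17750 in the Salv CKO samples, against 19080 and 18580 in the controls. Those with the widest range, Tagln, Cnn1 and Lmod1, were dim, with intensities of at most 47, and Cnn1 was listed at 0 or below on some arrays. Tagln, an actin-binding protein of smooth muscle, had levels of 3.72 and 3.18 in Salv CKO 1 and 2, against 5.68 and 5.22 in Control 1 and 2. Its difference was -2.0 (limma, unadjusted p = 0.00181, adjusted p = 0.998). Cnn1 differed by -1.18 and Lmod1 by -0.80 (limma, unadjusted p = 0.0127 and 0.0282, adjusted p = 0.998 for both). All 3 were lower in Salv CKO without overlap between the groups, and they were the mural markers that passed an unadjusted p of 0.05, where 3.97% of all probes did. In all, 4 of the 11 lay lower without overlap, or 36.4%, against 15.8% of all probes. The brighter mural markers pointed both ways, with differences from -0.27 in Pdgfrb to 0.10 in Abcc9. Acta2, Abcc9, Kcnj8 and Des were positive, and Smtn, Pdgfrb, Rgs5 and Cspg4 negative. Pdgfrb had the sample order of Jag1, and 5 of the 11 markers were highest in Control 1, against 35.8% of all probes. Endocardial markers had 2 of 5 positive differences and a median of -0.082, with summed intensities of 16970 and 17070 against 15280 and 17290. How far vascular cells account for the ligand levels was not tested.

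**Figure D2:**
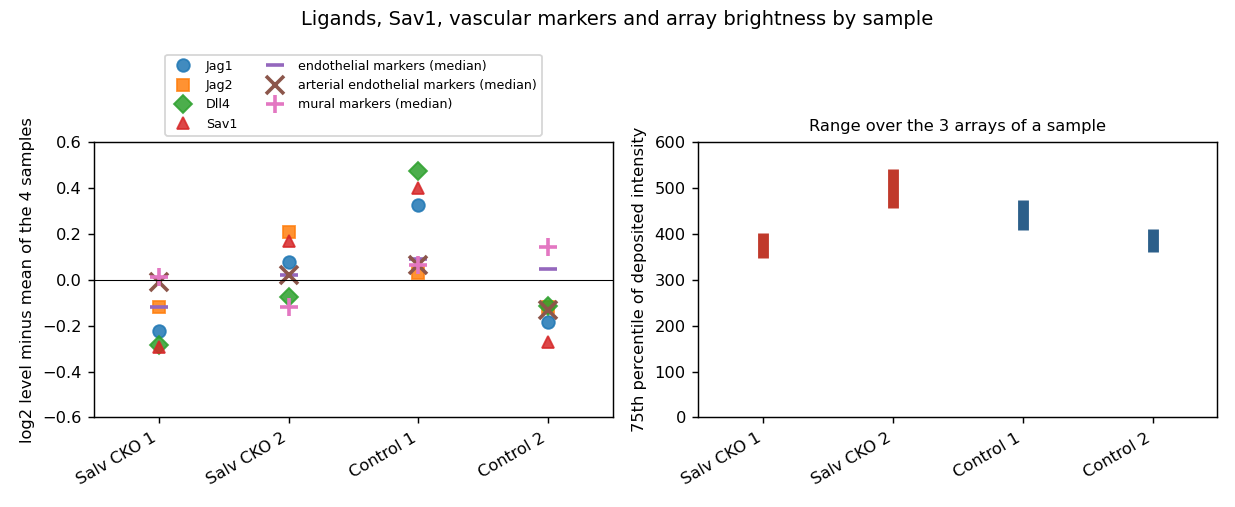
Left, log2 level minus the mean of the 4 samples for Jag1, Jag2, Dll4 and Sav1, with the median over endothelial, arterial endothelial and mural markers. Right, range over the 3 arrays of a sample of the 75th percentile of deposited intensity, on a linear axis from 0. Jag1, Dll4 and Sav1 are highest in Control 1, and the brightest arrays are those of Salv CKO 2, up to 542.

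Cardiomyocyte markers were bright, the 7 measured of 12 listed lying between 14.0 and 15.35 in every sample, with a median difference of -0.019. Of the other cell types, adipocyte markers stood apart most, with 7 of 8 negative differences and a median of -0.99, and airway markers varied between single samples, Scgb3a2 standing at 10.61 and 3.29 in Salv CKO 1 and 2, against 4.02 and 11.55 in Control 1 and 2. Median differences were 0.021 for fibroblast, -0.082 for macrophage, -0.009 for lymphocyte, 0.64 for erythroid and -0.85 for airway markers. Only 4 of 7 erythroid markers were measured, 2 of them dim, and none separated the groups without overlap. As a list they were lowest in Control 2, with summed intensities of 9086 and 13660 in Salv CKO 1 and 2, against 10990 and 5276 in Control 1 and 2. Adipocyte markers were highest as a list in Control 1, the sample highest for Jag1 and Dll4, with 6 of 8 markers highest there. Their median level minus the mean of the 4 samples was 0.146 and -1.23 in Salv CKO 1 and 2, against 0.796 and 0.23 in Control 1 and 2, so that Salv CKO 2 was lowest, where Jag1 and Dll4 had their second highest level. Groups did not overlap for 6 of the 8, 1 higher and 5 lower in Salv CKO, against 30.6% of all probes. Airway markers were highest as a list in Control 2. The part of these cell types in the ligand levels was not tested.

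The rest of the Notch pathway was read from a list of 61 other genes, of which 57 were measured. None passed an adjusted p of 0.05 (limma, smallest adjusted p = 0.998). Differences were positive in 26 and negative in 31, with a median of -0.0027, against -0.010 over all probes. The groups did not overlap for 17 of the 57, or 29.8%, near the 30.6% of all probes, with 8 higher and 9 lower in the Salv CKO samples. At an unadjusted p under 0.05 there were 3 genes, Crebbp, Dlk1 and Hes2, all with higher levels in Salv CKO. That is a share near the 3.97% of all probes that passed, 514 of them higher and 534 lower in Salv CKO.

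Among the other ligands and ligand-like genes, Dlk1 had the widest gap. Dlk1 is a Delta-like membrane protein and an imprinted gene of fetal growth. Its levels were 6.73 and 6.87 in Salv CKO 1 and 2, against 5.19 and 6.01 in Control 1 and 2. Both Salv CKO samples stood above both controls, with Control 1 the lowest. The difference was 1.20 ± 0.34 (SE, limma, unadjusted p = 0.0199, adjusted p = 0.998), and it ran from 0.787 without Control 1 to 1.61 without Control 2. The other probe of Dlk1, a dim one, differed by 0.25. Its relative Dlk2 had levels of 9.08 and 8.57, against 7.84 and 8.47, a difference of 0.67 ± 0.34 without overlap.

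Dll1, the Delta ligand of many progenitor tissues, had levels of 6.40 and 6.43 in Salv CKO 1 and 2, against 7.06 and 6.46 in Control 1 and 2. As with Dll4, Control 1 stood alone, here with the other 3 samples close together. The difference in Dll1 was -0.34 ± 0.29 (SE), and -0.0437 without Control 1. Dner, a Delta-like protein known from neurons, differed by -0.44 and was likewise highest in Control 1, at 7.22. Dll3 had intensities of at most 9, near background, and its difference is not read here. Egfl7, which is also an endothelial marker, was level across the samples, at 13.84 and 13.70 against 13.82 and 13.75.

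Genes that prepare ligands and receptors showed no common direction. Of the ubiquitin ligases that drive ligand endocytosis, 3 of 4 had a positive difference, and the largest was 0.17, in Neurl1b. Of the glycosyltransferases that tune which ligand a receptor answers to, 2 of 5 were positive. Lfng, a Fringe enzyme and dim here, differed by 0.21 ± 0.21 and Mfng by 0.15 ± 0.22 (SE). Poglut1, which adds glucose to Notch, had levels of 10.86 and 11.08 in Salv CKO 1 and 2, against 11.26 and 11.23 in Control 1 and 2, a difference of -0.28 taken up after the values had been seen.

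Of the proteases that cut Notch and their partners, 3 of 8 measured had a positive difference. Adam10, the sheddase of the outer cut, differed by -0.0017 ± 0.24 (SE). Subunits of gamma-secretase, which makes the inner cut, pointed both ways. Psen2, a catalytic subunit, had levels of 6.95 and 7.48 in Salv CKO 1 and 2, against 8.35 and 7.43 in Control 1 and 2, and Ncstn, the subunit that receives the substrate, had 6.89 and 7.39, against 7.99 and 7.34. Both were highest in Control 1 and their groups overlapped, with differences of -0.675 and -0.53, and of -0.213 and -0.204 without Control 1. Psenen differed by 0.11 and Aph1a by 0.23.

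In the nucleus, 3 of 10 activators had a positive difference. Rbpj, the DNA-binding partner of Notch, was dim, at intensities from 16 to 42. Its levels were 4.26 and 4.64 in Salv CKO 1 and 2, against 5.18 and 4.65 in Control 1 and 2. The groups did not overlap, but Salv CKO 2 and Control 2 lay next to each other, and the difference of -0.46 ± 0.30 (SE) was -0.196 without Control 1. Crebbp, an acetyltransferase and coactivator, had the smallest p in the pathway list, with a difference of 0.78 ± 0.22 (limma, unadjusted p = 0.0181, adjusted p = 0.998). It lay at intensities of at most 16, near background, and the difference was 0.272 with a pseudocount of 16. The Mastermind coactivators Maml1, Maml2 and Maml3 differed by -0.015, 0.044 and -0.17. Corepressors had 4 of 9 positive differences.

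Regulators of receptor turnover had 4 of 9 positive differences. The dim gene Dtx1, a Deltex ubiquitin ligase, had levels of 5.07 and 5.53, against 5.90 and 5.74, a difference of -0.52 ± 0.26 (SE). Among target genes other than the Hey family, 4 of 6 were positive. Hes1, the best known target, had levels of 10.41 and 10.44 in Salv CKO 1 and 2, against 10.99 and 10.53 in Control 1 and 2. Its difference was -0.34 ± 0.26 (SE) and -0.105 without Control 1, and its other probe differed by -0.090. Hes5 differed by 0.049 ± 0.35, and its groups overlapped. Hes2 lay at intensities of at most 10, and its difference of 0.92 was 0.195 with a pseudocount of 16. Nrarp, a target that feeds back on the pathway, differed by -0.036.

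Control 1 had the highest level in 26 of the 57 pathway genes, and in 35.8% of all probes. The ligands Jag1 and Dll4, the ligand Dll1, the proteases Psen2 and Ncstn, the partner Rbpj and the target Hes1 were all among the genes highest in that sample. These genes were picked out after their values were seen.

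**Figure D3:**
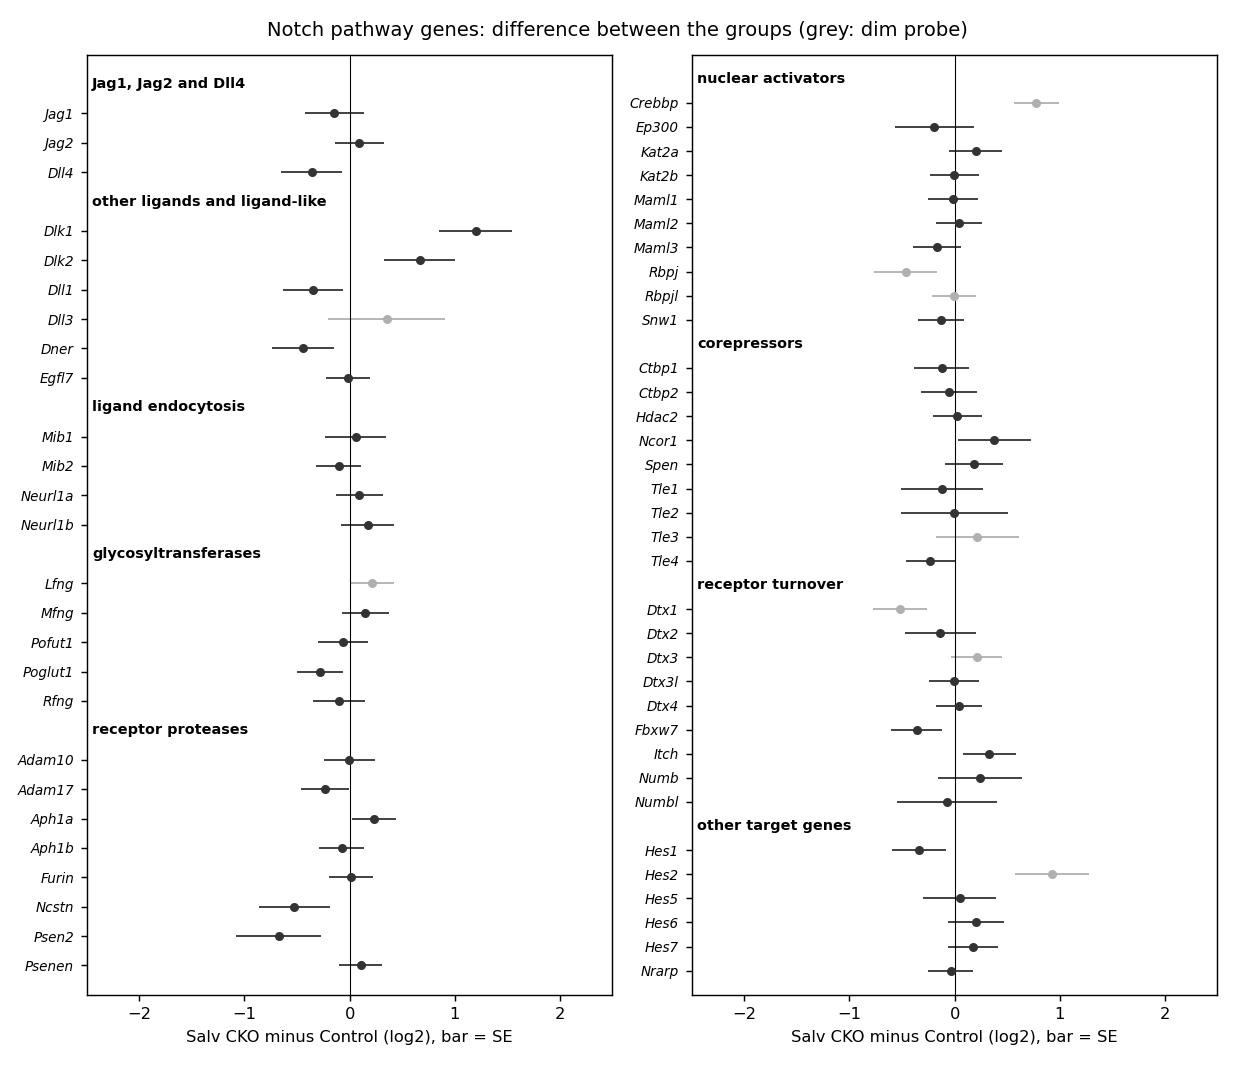
Salv CKO minus Control difference on the log2 scale for Jag1, Jag2, Dll4 and the 57 other measured Notch pathway genes, grouped by role. Bars are 1 SE from limma with n = 2 samples per group, and grey marks dim probes. Dlk1 stands farthest from 0, at 1.20, and Psen2 lowest, at -0.675.

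The ligand differences were also recomputed under other settings. Over the settings that kept all 4 samples, the difference ran from -0.305 to -0.116 in Jag1, from 0.0235 to 0.213 in Jag2 and from -0.439 to -0.25 in Dll4. No sign changed, but in some of these settings none could, as the ligand differences are the same there by construction. Those settings were the sample as a random block, the replicate block, the mean over probes and leaving out dim probes. Leaving out 1 sample moved them more, from -0.398 to 0.11 in Jag1, from -0.0716 to 0.259 in Jag2 and from -0.656 to -0.0645 in Dll4. Dll4 alone kept its sign in every setting, and no setting gave any of the 3 ligands an adjusted p under 0.05 (limma, smallest 0.488, in Dll4 without Control 2).

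**Figure D4:**
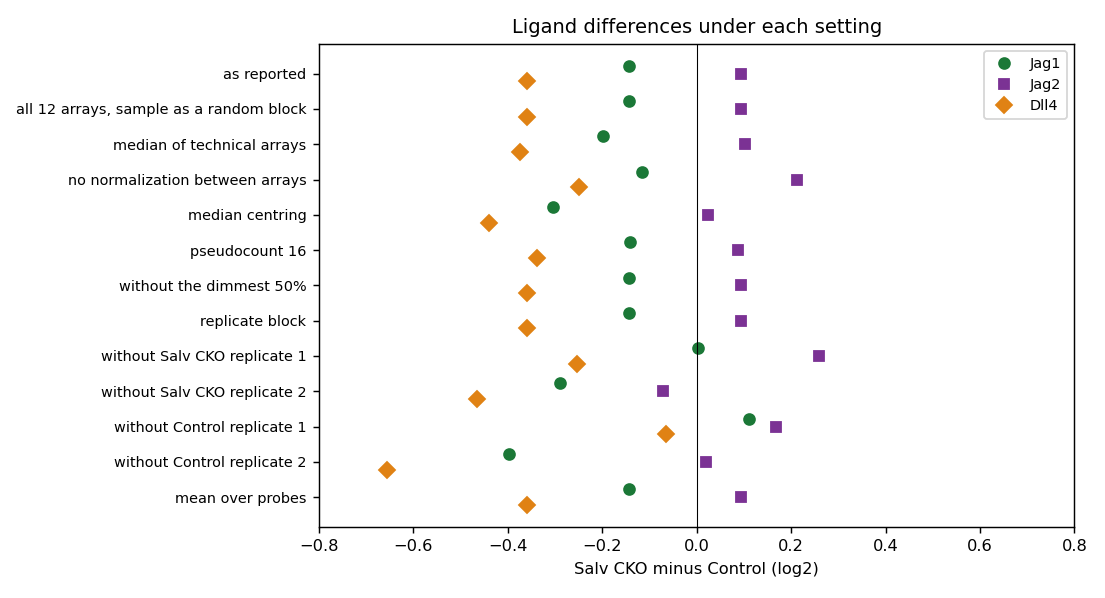
Salv CKO minus Control difference on the log2 scale for Jag1, Jag2 and Dll4 under each setting, 1 setting per line. Dll4 stays below 0 throughout, from -0.656 to -0.0645, while Jag1 and Jag2 change sign when single samples are left out.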

How the data were processed

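Per the labels, amino-allyl amplification of total RNA was followed by Cy5 coupling, and 12 arrays were hybridised. The deposited values are intensities, whole numbers from -10 to 65474 for 26423 probes. Scanner, background correction and any normalization by the authors are not stated in the sources used here.

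Arrays differed in scale and were quantile normalized (limma 3.58.1, R 4.3.3). Negative values were raised to 0.0833, the smallest positive value, before log2(value + 1), a scale on which changes of dim probes are understated. Each sample entered as the mean of its 3 technical arrays. The groups, 2 samples each, were compared with limma (lmFit, eBayes), two-sided, with Benjamini-Hochberg adjustment across the 26423 probes and a threshold of 0.05. The number of samples limits the precision.

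Probes with 1 symbol numbered 20377, with none 6046. Symbols were updated through RefSeq (GRCm38.p6), 18213 by symbol and 2126 by synonym, with 38 unmatched. Where probes shared a gene, the brightest by its mean across the 12 arrays was used. A probe is called dim where that mean lies under the median of all probes.

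The members and lists were chosen with earlier results of these data known. Named are the 10 members, the 8 other pathway genes with the smallest p, 8 fixed pathway genes where measured, up to 3 markers of each list with the widest range, and, for likeness, the 3 nearest genes of each of the 2 most variable members. Genes named for other reasons are given to describe a role or were picked after their values were seen. Marker lists covered endothelial, arterial endothelial, endocardial, mural, cardiomyocyte, fibroblast, macrophage, lymphocyte, erythroid, adipocyte and airway cells. The fit was run on simulated data with known changes as a check of the code, and its power with 2 samples per group is not reported here. Alternatives covered the use of technical arrays, normalization, pseudocount, dim probes, a replicate block, samples left out and several probes, and figures were drawn with matplotlib 3.10.9.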

Additional observations from a re-analysis of the deposited data

How the results depend on the processing

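The count of 0 of 26423 probes in limma (1048 at an unadjusted p under 0.05) became 61 with all 12 arrays and the sample as a random block, 14 without normalization between arrays and 2 with median centring, and 0 in the other settings run. The 1048 became 2202 with the random block, 327 without the dimmest 50%, 638 without Salv CKO 1 and 2824 without Control 2. No ligand and no pathway gene was called in any setting that kept all 4 samples. All 57 pathway genes were tested in these settings, except without the dimmest 50%, where 48 remained. The number of ligands with a positive difference, 1, lay between 0 and 2 when a sample was left out. The sign turned in Jag1 without Salv CKO 1 (0.00234) and without Control 1 (0.11), and in Jag2 without Salv CKO 2 (-0.0716). Over the 4 samples left out in turn, Jag1 spanned -0.398 to 0.11 and Jag2 -0.0716 to 0.259. The median difference of the pathway list, -0.0027, spanned -0.0624 to 0.013 over samples left out. With median centring it was -0.173, but the median of all probes was -0.0778 there, and relative to it the list differed by -0.0953. Jag1 had its -0.305 in that setting, or -0.227 relative to the same median. Without normalization the median of all probes was 0.111, and relative to it Jag1, Jag2 and Dll4 differed by -0.227, 0.101 and -0.361. The cause of these shifts was not tested.

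Sample numbers are shared between the groups, but no label says that they pair samples. With the replicate block the counts stayed at 0, and no call changed. The ligand differences of -0.144 (Jag1), 0.0935 (Jag2) and -0.36 (Dll4) could not move, as a block leaves the differences of a balanced design as they are. Deviations of the samples numbered 1 correlated at -0.253 across probes, and a crossed pairing, chosen after seeing the data, also gave 0 calls among all probes, ligands and pathway genes.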
